A study of Mus musculus with 8 samples.

Results

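Genes of the Slit-Robo and netrin guidance systems were followed in single nucleus RNA-seq (snRNA-seq) of mouse pancreatic islets. The list held 10 genes, namely the ligand genes *Slit1*, *Slit2*, *Slit3* and *Ntn4* and the receptor genes *Robo1*, *Robo2*, *Unc5b*, *Unc5c*, *Unc5d* and *Dcc*. Of these, 9 were found by name among the 17362 genes of the table, and *Slit1* was not analysed here. The genes were selected on measured values of this table, namely their levels by cell type and their differences between these conditions, so both are given as a description and were not tested.

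Slits are secreted proteins that bind Robo receptors and repel growing axons and migrating cells. Netrins are secreted, laminin-related proteins that attract through Dcc and repel through Unc5 receptors. Both systems are used outside the nervous system as well: Robo receptors have been linked to the placement of endocrine cell types within the islet, and Slit-Robo and netrin-Unc5b signals to the patterning of blood vessels.

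Islets of wild type (WT) mice and of mice with a whole-body Med14 S983A knock-in (mutant) were cultured untreated (CON) or exposed for 16 h to either forskolin (FSK) or, at 10 nM, Exendin-4 (Ex-4). Med14 is the scaffold subunit of Mediator, which links transcription factors to RNA polymerase II, and in the S983A protein a serine is replaced by alanine, a change that the level of a gene cannot check. FSK activates adenylyl cyclase directly, whereas Ex-4 raises cAMP through the GLP-1 receptor. The dose of FSK in the islets, and the age and sex of the mice, are not given in the sources used here. About 100 islets were used per condition, and nuclei of all 6 conditions were spread over 8 sublibraries.

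The table gives 1 pooled value per gene for each of 6 conditions in each of 9 annotated cell types. There were therefore no replicates, no test between conditions was possible, and condition cannot be told apart from islet preparation or barcoding well. Levels are CP10K, the counts of a gene per 10000 counts of its pool, and counts were recovered from the deposited values. Pools held 1915006 to 3094377 counts in beta cells, 269394 to 810127 in alpha cells and 362410 to 631433 in delta cells, but only 38625 to 127727 in PP cells, 55536 to 159305 in endothelial cells, 25695 to 87008 in the columns named muscle and 4044 to 58294 in those named neuron. Intervals are 95% and cover counting error only. Within a pool, a smaller share of nuclei expressing a gene and less RNA per nucleus cannot be told apart.

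Marker genes bore out the labels beta, alpha, delta, PP and endothelial, in that each list was highest in the pools of its own label. The 3 delta cell markers summed to 4.36 to 9.59 CP10K in delta pools, and the 1 PP marker was at 7.12 to 12.2 CP10K in PP pools. Marker genes did not bear out neuron: the summed level of 3 detected neuron or glia markers was 2.51 to 6.67 CP10K in those columns, no higher than in delta cells (5.88 to 20.4), and 8 beta cell markers summed to 7.89 to 30.5 CP10K there. Macrophage columns had 1 or more pools with all 3 of their detected markers at 0. The beta cell markers were present in other columns too, summing to 12.1 to 33.4 CP10K in alpha and to 5.26 to 11.9 CP10K in delta pools, with WT CON highest in both, against 42.9 to 60.3 CP10K in beta cells.

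The genes were expressed in different islet compartments, as the plot of levels by cell type shows. Beta, alpha and PP pools carried *Robo2*, beta pools carried *Robo1*, and delta pools carried *Unc5c*. By median, the ligand gene *Slit3* and the receptor gene *Unc5b* were highest in endothelial pools and in those named muscle. *Slit3* was also found in those named neuron, and *Ntn4* in alpha, PP and endothelial pools. Per length of gene, pooled over the 6 conditions, the highest levels among the receptor genes were those of *Unc5b* in endothelial cells (7.48 CP10K per 100 kb) and in the columns named muscle (3.54), and of *Unc5c* in delta cells (3.24). On this per-length scale *Robo2* was at 0.921 CP10K per 100 kb in beta cells, 0.763 in PP cells and 0.689 in alpha cells, and *Robo1* at 0.557 in beta cells.

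**Figure D1:**
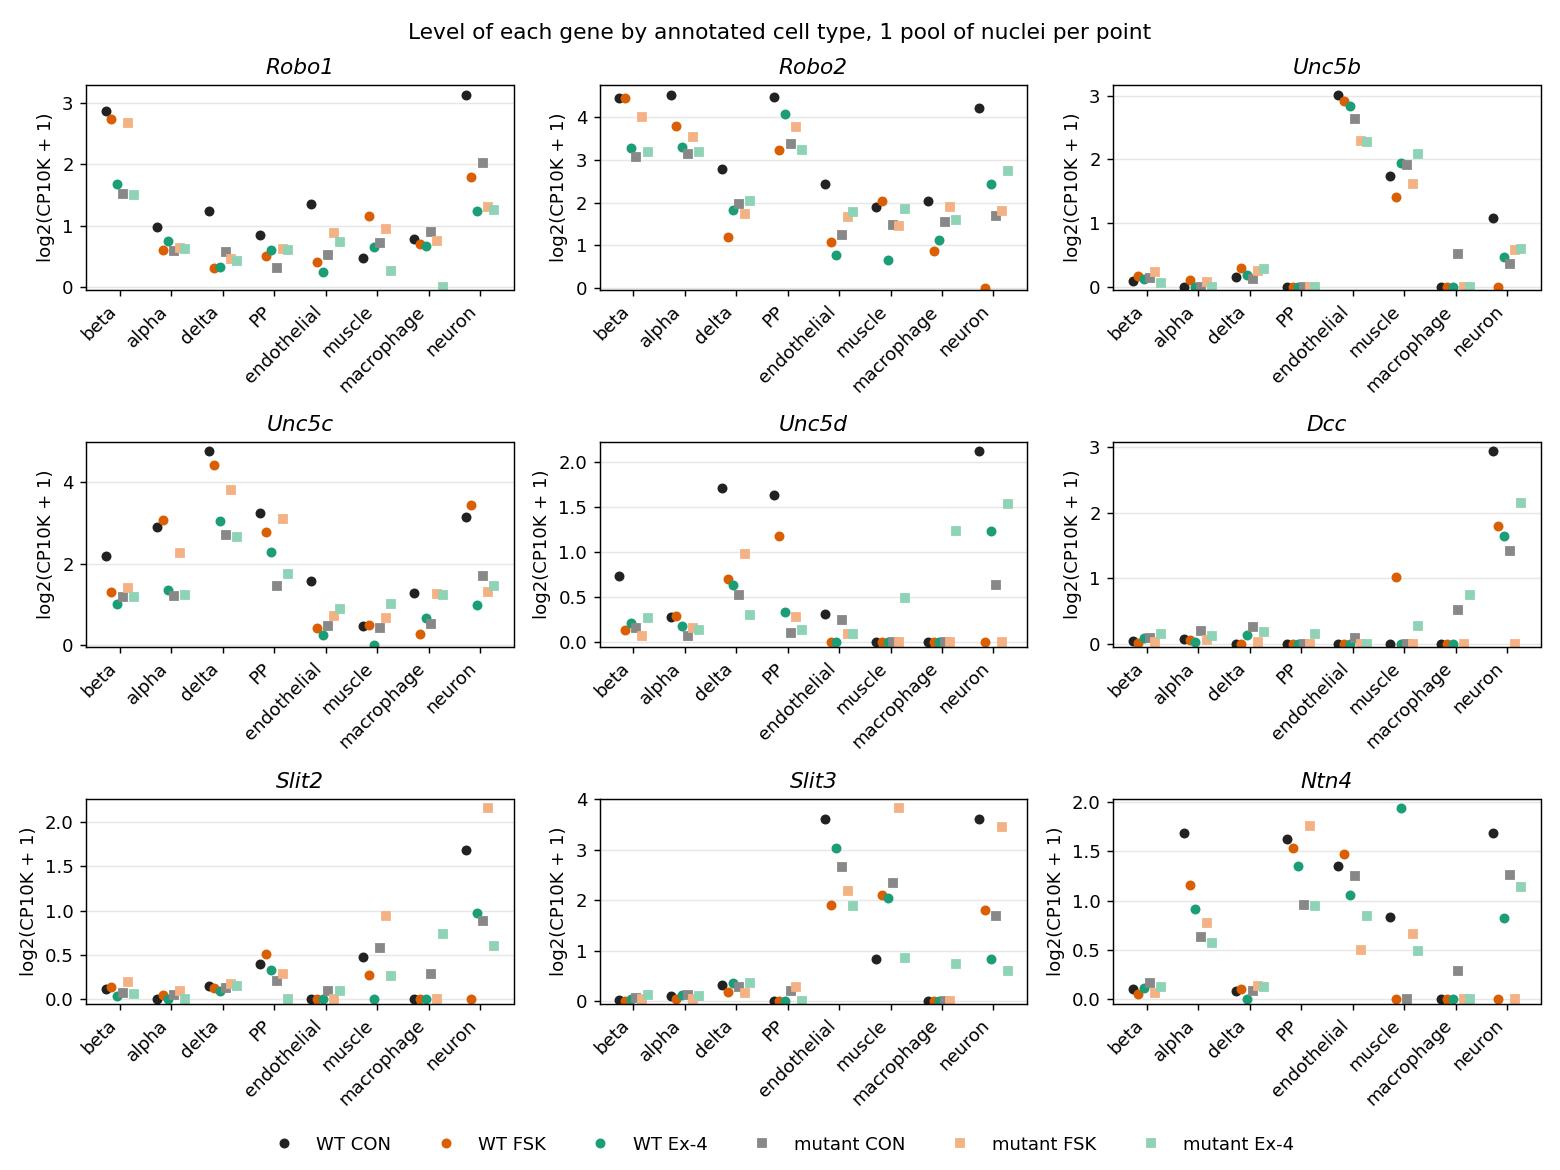
Level of each of the 9 genes, as log2(CP10K + 1) on the vertical axis, in 8 annotated cell types on the horizontal axis. Each point is 1 pool of nuclei, circles are WT and squares mutant, and colors give the treatment; ductal pools, of 1522 to 19291 counts, are not drawn. *Unc5b* is highest in endothelial pools (3.82 to 7.11 CP10K), *Unc5c* in delta pools, and *Dcc* reaches 6.67 CP10K in columns named neuron but no more than 1.03 CP10K elsewhere.

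Cell types were ordered for each gene by the median of their 6 pools. *Robo1* ran from beta (3.81 CP10K) over neuron (1.98) to macrophage (0.653), *Robo2* from beta (11.98) over PP (11.05) and alpha (9.75) to neuron (3.45) and delta (2.74), and *Unc5c* from delta (10.1) over PP (4.89), alpha (2.66) and neuron (1.97) to beta (1.37). Most neighbours in these orders had overlapping ranges over the 6 pools, beta, PP and alpha for *Robo2* and delta and PP for *Unc5c* among them. The ranges did not overlap between neuron and macrophage for *Robo1*, or between endothelial and muscle for *Unc5b* (medians of 5.67 and 2.55 CP10K). Nor did they between muscle and neuron for *Unc5b*, or between neuron and delta and between delta and alpha for *Slit3*. The *Robo1* gap rests on 1 to 11 counts per neuron pool and 0 to 4 per macrophage pool. Count intervals overlapped there, such as 0.544 to 2.79 in neuron WT Ex-4 and 0.234 to 2.20 in macrophage mutant CON.

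*Slit3*, a ligand of Robo receptors, had its highest medians in the endothelial (4.43 CP10K), muscle (3.21) and neuron (2.35) columns. In endothelial cells it was at 11.1 CP10K in WT CON, 2.73 in WT FSK, 7.20 in WT Ex-4, 5.34 in mutant CON, 3.53 in mutant FSK and 2.70 in mutant Ex-4, from 17 to 136 counts. WT CON stood highest, with an interval (9.32 to 13.1) that met only that of WT Ex-4 (5.15 to 9.81). In the columns named muscle, which carried 3 detected muscle or stellate markers at a summed 3.52 to 20.8 CP10K, *Slit3* was at 0.778 to 4.06 CP10K in 5 conditions and at 13.1 (114 counts) in mutant FSK. In the columns named neuron *Slit3* was at 0.515 to 11.1 CP10K, from 1 to 20 counts per pool. Endocrine pools had little *Slit3*, with 1 to 18 counts per pool of beta cells and 6 to 16 per pool of delta cells.

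*Ntn4*, which encodes a netrin of basement membranes, was an alpha and PP cell gene among the endocrine pools. In alpha cells it was at 2.22 CP10K in WT CON (93 counts), 1.22 in WT FSK (33), 0.886 in WT Ex-4 (40), 0.543 in mutant CON (44), 0.713 in mutant FSK (56) and 0.479 in mutant Ex-4 (38). WT CON was above all other pools, and the 3 mutant pools were the lowest. In beta cells *Ntn4* had 10 to 23 counts per pool and in delta cells 0 to 6. *Slit2* had 8 to 33 counts per pool of beta cells. It was at 0.103 CP10K in WT FSK, 0.143 in mutant FSK and 0.0863 in WT CON. WT Ex-4 and mutant CON and Ex-4 were at 0.0268 to 0.0467 CP10K. The WT FSK interval (0.0707 to 0.146) overlapped those of mutant CON (0.0214 to 0.0887) and mutant Ex-4 (0.0180 to 0.0823). It did not meet that of WT Ex-4 (0.0116 to 0.0529). The mutant FSK interval (0.0986 to 0.201) met none of these. Both FSK intervals overlapped that of WT CON (0.0564 to 0.126).

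*Unc5b*, the Unc5 receptor of endothelium, was at 7.11 CP10K in endothelial cells of WT CON, 6.59 in WT FSK, 6.12 in WT Ex-4, 5.21 in mutant CON, 3.88 in mutant FSK and 3.82 in mutant Ex-4, from 34 to 87 counts. All 3 WT pools were above all 3 mutant pools, but the *Unc5b* intervals of WT and mutant overlapped within each treatment. With CON they were 5.69 to 8.77 in WT and 4.15 to 6.46 in the mutant. With FSK they were 4.73 to 8.95 in WT and 2.93 to 5.03 in the mutant. With Ex-4 they were 4.24 to 8.56 in WT and 2.90 to 4.94 in the mutant. Pools of beta cells held 8 to 39 counts of it and pools of PP cells none, so that a PP level of up to 0.235 to 0.777 CP10K would have been missed at 3 counts. *Dcc*, the attractive netrin receptor, reached 0 to 6.67 CP10K in the columns named neuron, from 0 to 20 counts, and had 0 to 20 counts in any pool of beta, alpha or delta cells. It fell under the filter on low values in these 3 cell types and entered no comparison.

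The 4 remaining receptor genes carried most of the signal in endocrine nuclei. *Robo1* and *Robo2* encode single-pass receptors for Slits, and *Unc5c* and *Unc5d* encode netrin receptors with intracellular death domains. In beta cells *Robo1* was at 6.31 CP10K in WT CON (1902 counts), 5.67 in WT FSK (1755), 2.21 in WT Ex-4 (660), 1.86 in mutant CON (359), 5.40 in mutant FSK (1245) and 1.81 in mutant Ex-4 (347). The 6 pools fell into a higher set, WT CON and both FSK pools, and a lower set, WT Ex-4 and mutant CON and Ex-4. *Robo2* in beta cells split the same way, at 20.9, 20.8 and 15.2 CP10K in WT CON, WT FSK and mutant FSK and at 8.77, 7.35 and 8.15 CP10K in WT Ex-4 and mutant CON and Ex-4, from 1415 to 6423 counts.

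*Unc5c* in beta cells did not follow that split. It was at 3.55 CP10K in WT CON (1070 counts) and at 1.47 in WT FSK (454), 1.00 in WT Ex-4 (298), 1.28 in mutant CON (246), 1.64 in mutant FSK (378) and 1.28 in mutant Ex-4 (245). WT CON stood alone above the other 5 pools. *Unc5d* was the same in this respect, at 0.667 CP10K in WT CON (201 counts) and 0.0521 to 0.209 CP10K in the other pools (12 to 47 counts).

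Alpha cells had *Robo2* at a level near that of beta cells but little *Robo1*. *Robo2* was at 22.2 CP10K in WT CON (930 counts), 12.9 in WT FSK (348), 8.93 in WT Ex-4 (403), 7.80 in mutant CON (632), 10.6 in mutant FSK (831) and 8.07 in mutant Ex-4 (640). Both FSK pools were above both Ex-4 pools, and WT CON was above all. *Robo1* was at 0.494 to 0.978 CP10K, from 14 to 43 counts, and *Unc5d* had 4 to 9 counts per pool. *Unc5c* in alpha cells was at 6.42 CP10K in WT CON (269 counts), 7.46 in WT FSK (201), 1.55 in WT Ex-4 (70), 1.30 in mutant CON (105), 3.77 in mutant FSK (296) and 1.34 in mutant Ex-4 (106). Here the WT FSK pool was the highest, and the pools of WT Ex-4 and of mutant CON and Ex-4 were the lowest.

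Delta cells were the main site of *Unc5c*. It was at 26.0 CP10K in WT CON (944 counts), 20.5 in WT FSK (878), 7.30 in WT Ex-4 (315), 5.53 in mutant CON (313), 12.9 in mutant FSK (815) and 5.34 in mutant Ex-4 (295). The lowest delta pool was above the highest beta pool (3.55), but not above the highest alpha pool (7.46). *Unc5d* in delta cells was at 2.26 CP10K in WT CON (82 counts), 0.632 in WT FSK (27), 0.556 in WT Ex-4 (24), 0.441 in mutant CON (25), 0.966 in mutant FSK (61) and 0.235 in mutant Ex-4 (13). *Robo2* was at 5.90 CP10K in WT CON and at 1.29 in WT FSK, 2.55 in WT Ex-4, 2.93 in mutant CON, 2.34 in mutant FSK and 3.08 in mutant Ex-4. For both of these genes WT CON was the highest pool, and WT FSK was the lowest pool for *Robo2*. *Robo1* was at 1.35 CP10K in WT CON (49 counts) and 0.234 to 0.477 CP10K elsewhere (10 to 27 counts).

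The PP and endothelial pools had fewer counts. In PP cells *Robo2* was at 21.2 CP10K in WT CON (132 counts), 8.43 in WT FSK (40), 15.8 in WT Ex-4 (61), 9.32 in mutant CON (119), 12.8 in mutant FSK (118) and 8.48 in mutant Ex-4 (83). *Unc5c* in PP cells was at 8.52 CP10K in WT CON, 5.90 in WT FSK, 3.88 in WT Ex-4, 1.72 in mutant CON, 7.58 in mutant FSK and 2.35 in mutant Ex-4, from 15 to 70 counts. WT CON was highest for both genes, and mutant CON and mutant Ex-4 were the lowest pools for *Unc5c*. Count intervals overlapped, such as those of *Unc5c* in WT CON (6.38 to 11.1) and mutant FSK (5.91 to 9.58). Those of *Unc5c* in mutant Ex-4 (1.49 to 3.53) and WT Ex-4 (2.17 to 6.41) did so too. For *Robo2*, those of WT CON (17.8 to 25.2) and WT Ex-4 (12.1 to 20.3) overlapped. The beta cell markers in the PP pools summed to 13.7 CP10K in WT CON, 1.27 in WT FSK, 10.6 in WT Ex-4 and 3.14 to 5.82 in the mutant, and their part in the *Robo2* level was not tested. In endothelial cells *Robo2* was at 4.41 CP10K in WT CON and 0.720 to 2.44 CP10K in the other pools, where the beta cell markers summed to 9.56 CP10K in WT CON and 2.16 to 11.7 CP10K in the others, and their part in the *Robo2* level was not tested.

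**Figure D2:**
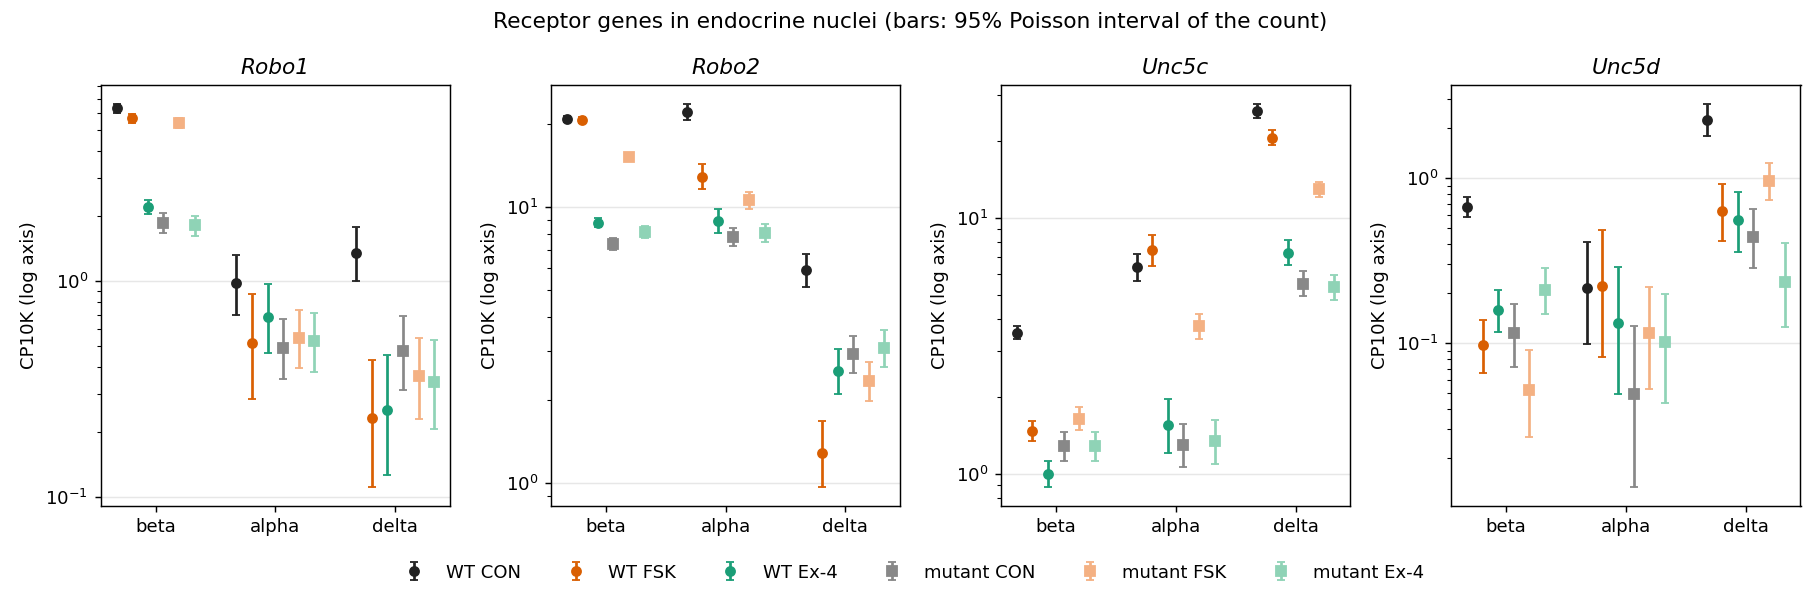
Level of *Robo1*, *Robo2*, *Unc5c* and *Unc5d* in beta, alpha and delta pools, in CP10K on a log axis. Points are single pools, circles WT and squares mutant, colored by treatment, and bars are 95% Poisson intervals of the count. In beta cells *Robo1* and *Robo2* are high in WT CON, WT FSK and mutant FSK, while *Unc5c* is high in WT CON alone (3.55 CP10K against 1.00 to 1.64).

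The first comparison asked what Ex-4 does in WT islets. A gene was called where log2(CP10K + 1) differed by at least 0.585, that is 1.5-fold on this scale, which understates the change of low genes. It had also to be kept by a filter on low values, which left 7 of the 9 genes in beta cells (all but *Slit3* and *Dcc*). In beta cells 3 genes were lower with Ex-4, *Robo1* (2.85-fold, -1.19 on the log2 scale), *Robo2* (2.39-fold, -1.17) and *Unc5c* (3.55-fold, -1.19), and none was higher. Of all 10093 kept genes, 2.18% were called lower, and since the list was chosen with this contrast known, nothing is read from the share.

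*Unc5d* had the lowest ratio of the receptor genes in this comparison, 0.236 (0.168 to 0.326), but at its level the difference was -0.53, outside the threshold. *Slit2* had a ratio of 0.311 (0.122 to 0.707, 8 against 26 counts) and a difference of -0.08. *Unc5b* and *Ntn4* had ratios of 1.41 (0.769 to 2.65) and 1.11 (0.586 to 2.10), with intervals that include 1.

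In alpha cells, where 5 genes were kept, Ex-4 in WT went with lower *Robo2* (22.2 CP10K in WT CON and 8.93 in WT Ex-4, -1.22), *Unc5c* (6.42 and 1.55, -1.54) and *Ntn4* (2.22 and 0.886, -0.77). The background was 4.02% of 9487 genes called lower. *Robo1*, at 0.978 and 0.687 CP10K, had a ratio of 0.702 (0.426 to 1.15). The beta cell markers summed to 33.4 CP10K in the alpha pool of WT CON and 19.2 in that of WT Ex-4, and their part in the *Robo2* difference was not tested.

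Delta cells had 4 genes lower out of 7 kept, against 3.32% of 9256 genes. *Unc5c*, the most abundant of them, was at 26.0 CP10K in WT CON (944 counts) and 7.30 in WT Ex-4 (315), a 3.57-fold difference (-1.71). *Unc5d* was at 2.26 and 0.556 CP10K (-1.07), *Robo2* at 5.90 and 2.55 (-0.96) and *Robo1* at 1.35 and 0.255 (-0.91, 49 and 11 counts). The beta cell markers in the delta pools were at 11.9 CP10K in WT CON and 6.95 in WT Ex-4, and their part in the *Robo1* and *Robo2* differences was not tested.

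In the mutant, no gene of the list was called with Ex-4 in beta, alpha or delta cells, where 0.0495%, 0.0422% and 0.0432% of all kept genes were called in either direction. The ratios in beta cells were 0.972 (0.836 to 1.13) for *Robo1*, 1.11 (1.03 to 1.19) for *Robo2* and 1.00 (0.836 to 1.20) for *Unc5c*. In delta cells *Unc5c* had a ratio of 0.966 (0.821 to 1.14), and in alpha cells 1.03 (0.779 to 1.36). The intervals of these 3 genes exclude a 1.5-fold change by counting error alone, but there was no second pool of either condition to show how far such pools differ. At low counts in beta cells, *Unc5d* had a ratio of 1.83 (1.06 to 3.23, 40 against 22 counts) and *Unc5b* of 0.402 (0.153 to 0.953, 8 against 20), with differences of 0.12 and -0.08.

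Mutant CON against WT CON, which asks what the mutation does in untreated islets and shares the WT CON pool with the comparison above, had 3 genes lower in beta cells: *Robo1* (3.39-fold, -1.35), *Robo2* (2.85-fold, -1.39) and *Unc5c* (2.78-fold, -0.999), against 3.86% of all kept genes. *Unc5d* lay just outside the threshold at -0.581, with a 5.84-fold lower level. In alpha cells *Robo2* (-1.40), *Unc5c* (-1.69) and *Ntn4* (4.08-fold, -1.06) were lower, against 5.44%. In delta cells *Unc5c* (4.71-fold, -2.05), *Unc5d* (-1.18), *Robo2* (-0.81) and *Robo1* (-0.67) were lower, against 4.79%. From WT CON to mutant CON the summed beta cell markers went from 33.4 to 14.99 CP10K in the alpha pools and from 11.9 to 8.33 CP10K in the delta pools, and their part in the Robo differences was not tested.

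Between the 2 genotypes under Ex-4 the differences of *Robo1*, *Robo2* and *Unc5c* in beta cells were smaller. There *Robo1* had a ratio of 0.818 (0.717 to 0.933) for mutant Ex-4 against WT Ex-4, *Robo2* 0.929 (0.872 to 0.989) and *Unc5c* 1.28 (1.08 to 1.52). Other pairs differed more, such as *Ntn4* in alpha cells, at 0.886 CP10K in WT Ex-4 and 0.479 in mutant Ex-4. *Unc5d* in delta cells was at 0.556 and 0.235 CP10K.

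FSK asks what direct activation of adenylyl cyclase does. In WT beta cells the Robo genes hardly differed from WT CON, with ratios of 0.898 (0.841 to 0.959) for *Robo1* and 0.991 (0.957 to 1.03) for *Robo2*. The Unc5 genes did differ: *Unc5c* was 2.42-fold lower (-0.88) and *Unc5d* 6.88-fold lower (-0.60, 30 against 201 counts), and these 2 genes were the calls, against 0.723% of kept genes called lower. FSK and Ex-4 pools of WT beta cells thus differed in *Robo1* (2.56-fold higher with FSK, 2.34 to 2.81) and *Robo2* (2.37-fold, 2.26 to 2.48) more than in *Unc5c* (1.47-fold, 1.27 to 1.70).

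In WT alpha and delta cells *Robo2* was called and *Unc5c* was not. *Robo2* was lower with FSK in alpha cells, at 12.9 CP10K against 22.2 (-0.74, background 1.17% called lower), and in delta cells, at 1.29 against 5.90 CP10K (4.59-fold, -1.59). *Unc5c* had a ratio of 1.16 (0.964 to 1.401) in alpha cells and 0.788 (0.718 to 0.865) in delta cells, not past the threshold in either. Delta cells also had lower *Robo1* (-0.93, 10 against 49 counts) and *Unc5d* (3.58-fold, 27 against 82), so that 3 genes were called against 2.33% of all kept. The beta cell markers in these FSK pools summed to 17.2 CP10K for alpha and 5.26 for delta, below WT CON (33.4 and 11.9), and their part in the *Robo1* and *Robo2* differences was not tested.

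The count of *Unc5c* per count of *Robo2* in the same pool does not depend on the pool's total. In beta cells it was 0.170 (0.159 to 0.181) in WT CON and 0.0707 (0.0641 to 0.0778) in WT FSK. In alpha cells it went from 0.289 (0.252 to 0.332) to 0.578 (0.483 to 0.689), and in delta cells from 4.41 (3.80 to 5.14) to 16.0 (12.2 to 21.4). The mutant pools moved the same ways with FSK, from 0.174 to 0.108 in beta cells, from 0.166 to 0.356 in alpha cells and from 1.89 to 5.51 in delta cells. The intervals of the CON and FSK pools of a genotype did not overlap in any of these 3 cell types. The parts moved differently by genotype. In beta cells *Unc5c* went from 3.55 to 1.47 CP10K in WT and *Robo2* from 7.35 to 15.2 in the mutant. In delta cells *Robo2* went from 5.90 to 1.29 CP10K in WT and *Unc5c* from 5.53 to 12.9 in the mutant. The beta cell markers went from 33.4 to 17.2 CP10K in WT alpha and from 11.9 to 5.26 in WT delta pools, and their part in the ratios was not tested.

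**Figure D3:**
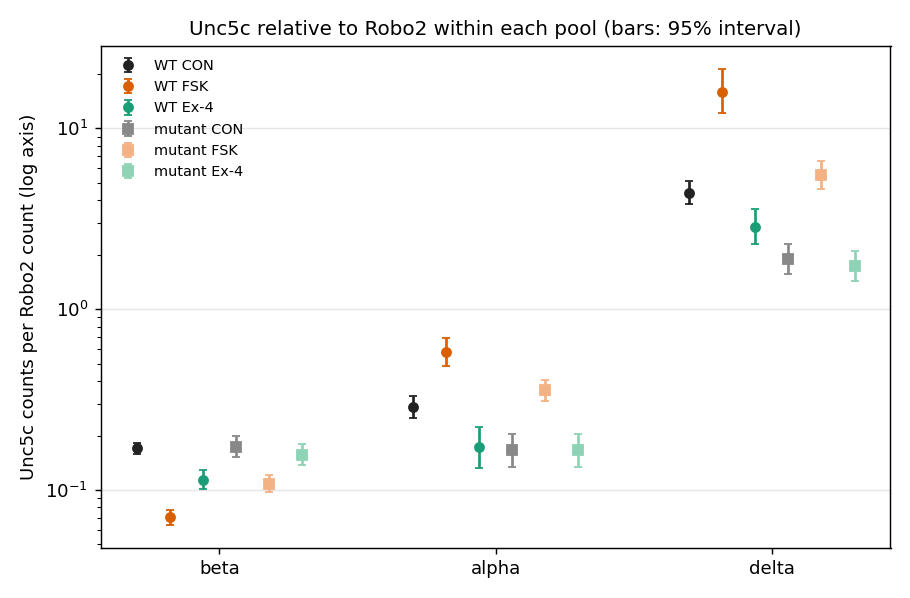
Counts of *Unc5c* per count of *Robo2* within each pool, on a log axis, for beta, alpha and delta cells. Points are single pools, circles WT and squares mutant, and bars are 95% intervals from the 2 counts. With FSK the ratio is lower than with CON in beta cells and higher in alpha and delta cells, in both genotypes.

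In the mutant, FSK pools of beta cells had higher Robo genes than mutant CON. *Robo1* was at 5.40 against 1.86 CP10K (1.16 on the log2 scale) and *Robo2* at 15.2 against 7.35 (0.95), and these 2 were the genes called, against 5.12% of kept genes called higher. *Unc5c* had a ratio of 1.28 (1.09 to 1.51) and *Unc5d* of 0.456 (0.206 to 0.962). The level of *Robo1* in mutant FSK was near that of WT FSK (ratio 0.953, 0.886 to 1.03), while that of *Robo2* was lower (0.731, 0.702 to 0.762).

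In mutant alpha and delta cells *Unc5c* was the gene called higher with FSK. It was at 3.77 against 1.30 CP10K in alpha cells (1.05, background 3.13% called higher) and at 12.9 against 5.53 CP10K in delta cells (1.09, background 5.47%). The mutant FSK pools did not reach the WT FSK pools in *Unc5c*, with ratios of 0.505 (0.421 to 0.607) in alpha cells and 0.629 (0.571 to 0.692) in delta cells. *Robo2* had ratios to mutant CON of 1.36 (1.22 to 1.51) in alpha cells and 0.800 (0.636 to 1.00) in delta cells.

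**Figure D4:**
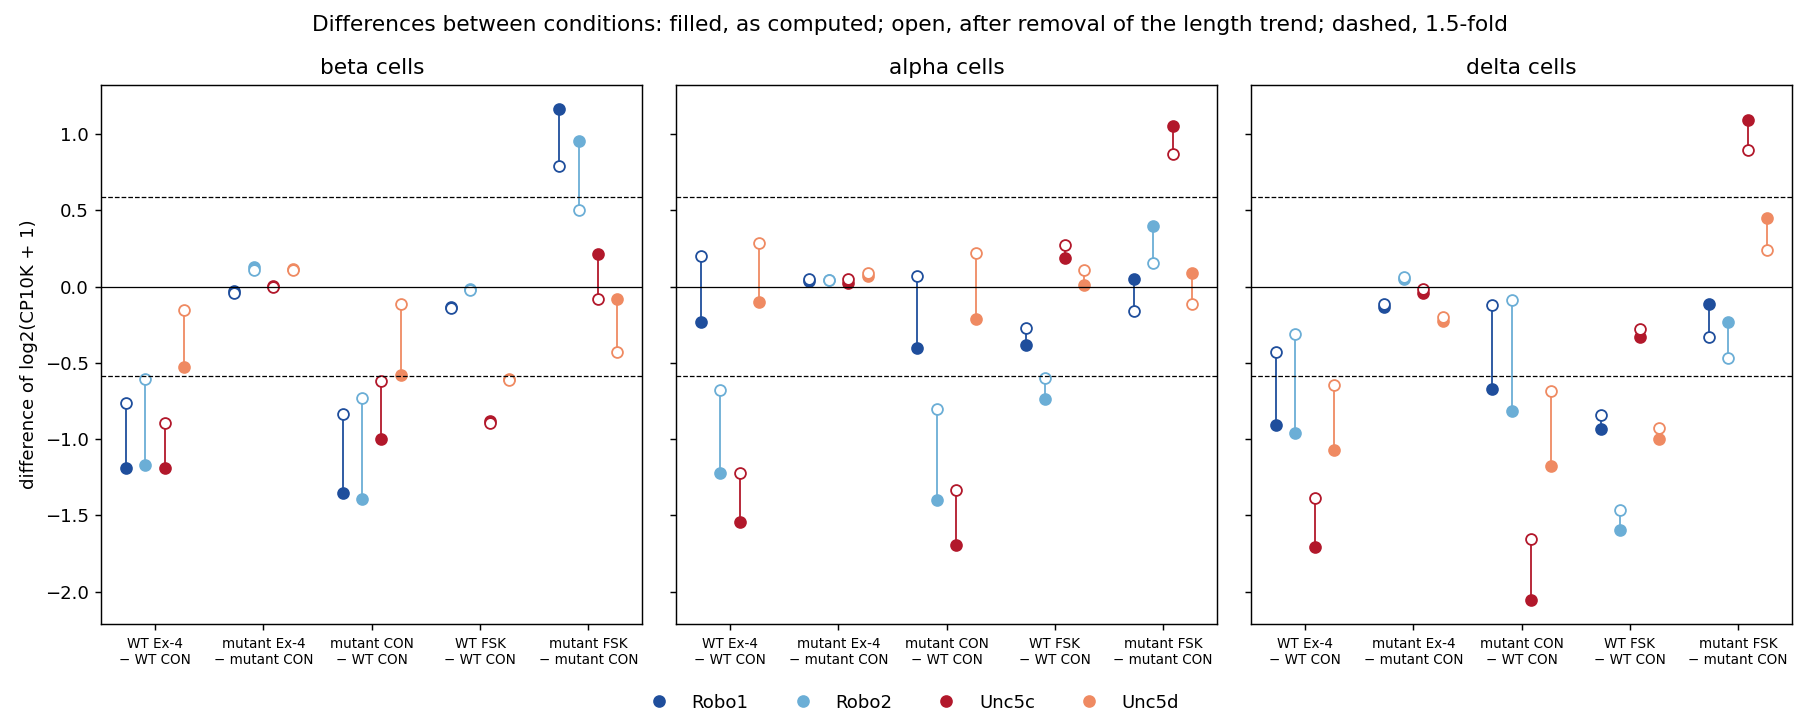
Differences of log2(CP10K + 1) between conditions for the 4 receptor genes in beta, alpha and delta cells. Filled points are the differences as computed, open points those left after removal of the trend on gene length, lines join both, and dashed lines mark 1.5-fold. Mutant Ex-4 against mutant CON lies near 0 in all 3 panels, and *Unc5c* in delta cells reaches -2.05 in mutant CON against WT CON.

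Most of the genes are very long. Span itself was not used to choose them, but the differences that were used moved with span, as given below. Nothing is therefore read from the shared length. On GRCm39, *Robo1* covers chr16:72105194-72844378 on the plus strand (739 kb) and *Robo2* lies on the same chromosome at chr16:73688727-75244270 on the minus strand (1556 kb). *Unc5c* covers chr3:141170977-141540685 on the plus strand (370 kb) and *Unc5d* covers chr8:29136745-29709664 on the minus strand (573 kb). Exons make up 2.46% of the span of *Robo1* and 1.53% of that of *Robo2*, and no other coding gene overlaps the 4. The median span of kept beta cell genes was 35.8 kb, and the shortest of the 9 members, *Unc5b*, covers 69.0 kb.

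Span moved with the differences across all genes. Of the 456 kept beta cell genes of 300 kb or more, 27.2% were called lower in WT Ex-4 and 36.0% in mutant CON, both against WT CON, and 33.6% were called higher in mutant FSK against mutant CON. Their median differences were -0.32, -0.39 and 0.33. In WT FSK the share of such long genes called lower was 4.82%, with a median of 0.01. In delta cells 161 of 460 such genes were called lower in WT Ex-4 and 180 in mutant CON.

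After a trend on span was removed, the 3 beta cell calls in WT Ex-4 stayed past the threshold, with *Unc5c* at -0.89, *Robo1* at -0.76 and *Robo2* at -0.61. *Unc5c* and *Unc5d* in WT FSK hardly moved (-0.89 and -0.61). In delta cells the Robo genes did not stay past it in 2 of 3 comparisons: *Robo2* was at -0.31 in WT Ex-4 and -0.09 in mutant CON, and *Robo1* at -0.43 and -0.12, whereas *Unc5c* remained at -1.38 and -1.66. In WT FSK both Robo genes stayed past it in delta cells, *Robo2* at -1.46 and *Robo1* at -0.84. In mutant FSK beta cells *Robo2* was at 0.50 after removal and *Robo1* at 0.79. The alpha cell calls stayed past the threshold, *Unc5c* at -1.22 and *Robo2* at -0.68 in WT Ex-4, and *Robo2* in WT FSK only narrowly, at -0.60.

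**Figure D5:**
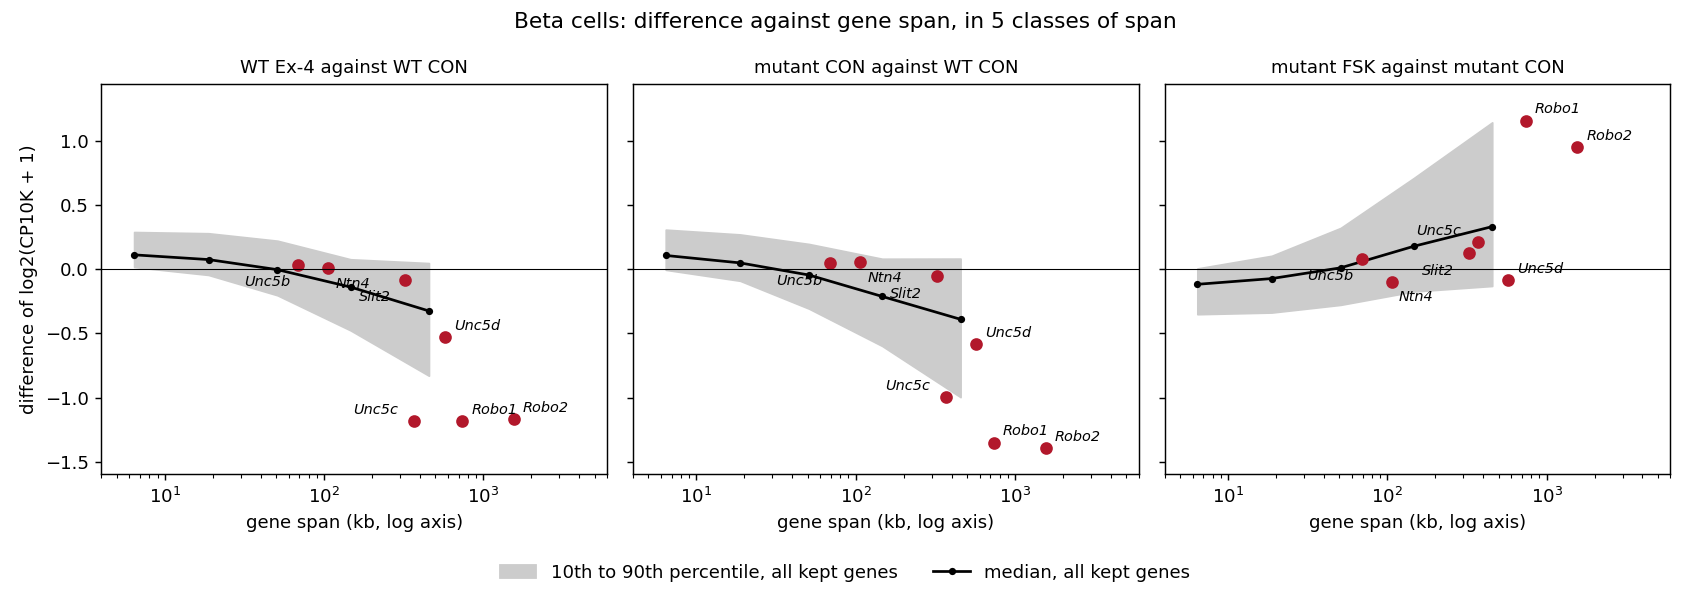
Difference of log2(CP10K + 1) against gene span in kb on a log axis, beta cells, in 3 comparisons. The black line is the median and the grey band the 10th to 90th percentile of all kept genes in 5 classes of span, drawn at the median span of each class, and red points are the 7 kept members. *Robo1* and *Robo2* lie at the long end, at -1.19 and -1.17 in WT Ex-4 against WT CON and at 1.16 and 0.95 in mutant FSK against mutant CON.

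Another quantity split the beta cell pools as the Robo genes did. A set of 16 ribosomal RNA linked and mitochondrial genes summed to 395, 309 and 307 CP10K in WT CON, WT FSK and mutant FSK, and to 1032, 1320 and 1634 CP10K in WT Ex-4 and mutant CON and Ex-4. The split of this set was not particular to beta cells. In WT CON and both FSK pools it summed to 456 to 580 CP10K in alpha and 241 to 406 in delta cells. In WT Ex-4 and mutant CON and Ex-4 it summed to 1404 to 1940 CP10K in alpha and 1027 to 1587 in delta cells. *Robo2* in delta cells did not split this way, with WT FSK its lowest pool (1.29 CP10K). With the beta cell pools rescaled without the 16 genes, *Robo1*, *Robo2* and *Unc5c* were at -1.13, -1.08 and -1.15 in WT Ex-4.

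The promoters of *Robo1*, *Robo2* and *Unc5c* are shown because these 3 genes were lower together in WT Ex-4 beta cells, and because cAMP acts on many genes through CREB, which binds the palindrome TGACGTCA or its shorter core TGACG. Each window runs from 250 bases before to 50 after a RefSeq start (GRCm38.p6), was matched exactly to GRCm39, and is printed 5′ to 3′ on the strand of the gene with any core in capitals. The *Robo2* window is the outermost of 3, and the *Robo1* window lies 354.8 kb inside the GENCODE span. The lines give *Robo1* at chr16:72459787-72460086 (plus), *Robo2* at chr16:75244132-75244431 (minus) and *Unc5c* at chr3:141171075-141171374 (plus).
Robo1: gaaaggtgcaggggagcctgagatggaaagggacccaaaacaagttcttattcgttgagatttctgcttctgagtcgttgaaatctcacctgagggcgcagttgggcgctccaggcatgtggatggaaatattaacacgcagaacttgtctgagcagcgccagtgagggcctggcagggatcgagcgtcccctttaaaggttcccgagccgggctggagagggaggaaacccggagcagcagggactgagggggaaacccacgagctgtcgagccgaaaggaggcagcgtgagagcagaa
Robo2: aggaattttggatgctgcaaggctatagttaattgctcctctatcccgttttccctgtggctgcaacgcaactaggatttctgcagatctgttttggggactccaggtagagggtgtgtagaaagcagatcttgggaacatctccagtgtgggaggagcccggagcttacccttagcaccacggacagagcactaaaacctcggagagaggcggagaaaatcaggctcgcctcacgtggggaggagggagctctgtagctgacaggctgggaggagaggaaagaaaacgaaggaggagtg
Unc5c: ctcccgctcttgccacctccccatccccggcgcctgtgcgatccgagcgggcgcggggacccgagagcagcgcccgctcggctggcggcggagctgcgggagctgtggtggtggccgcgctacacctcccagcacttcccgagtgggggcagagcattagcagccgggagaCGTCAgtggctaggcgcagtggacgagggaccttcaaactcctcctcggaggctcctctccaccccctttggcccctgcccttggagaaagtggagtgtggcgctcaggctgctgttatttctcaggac

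Neither *Robo1* nor *Robo2* held the palindrome or the core on either strand. *Unc5c* held 1 core, read as CGTCA on the strand shown, at position -79 from the start, and no palindrome. Among 32851 promoter windows of the same length, 1.79% held the palindrome and 20.8% the core, the latter including windows with the palindrome. Base composition differed, with a GC content of 57.0% in the *Robo1* window, 53.3% in that of *Robo2* and 68.3% in that of *Unc5c*.

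Likeness of pattern was measured as Pearson's r over the 18 beta, alpha and delta pools, centred within cell type, among 8561 genes. The pools share libraries, and r is given as a description. *Robo1* was most like *Bace2* (0.96), *Rps6ka5* (0.96) and *Gramd3* (0.95), and *Robo2* was most like *Cadps* (0.95), *Mbnl1* (0.94) and *Unc79* (0.94). *Robo1* and *Robo2* had r = 0.86 with each other, against 0.40 and 0.49 with *Unc5c*. *Unc5c* was most like *Stxbp5l*, *Nlgn1* and *Rbms3* (0.96 each) and *Unc5d* most like *Chst9*, *Prkar1b* and *Hdac9* (0.85 each).

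Within a pool, *Robo2* had 2.81 to 4.496 counts per count of *Robo1* in beta cells, 13 to 24.9 in alpha cells and 4.37 to 10.0 in delta cells. The beta and delta ranges met only at their edge (4.496 and 4.37), and no alpha pool came down to either. Count intervals overlapped more widely. That of delta WT Ex-4 (5.38 to 20.6) overlapped that of alpha WT Ex-4 (9.01 to 19.4). That of delta WT FSK (2.78 to 12.1) overlapped those of all beta pools.

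The other genes of these pathways, in lists drawn up with earlier results of these data known, were counted in the same way in beta cells. In alpha and delta cells the lists held calls besides the members, which are not described here. Of 12 receptor genes, 8 were kept, and the only call outside the list was *Neo1*, a netrin and repulsive guidance molecule receptor related to Dcc, at 1.65 CP10K in mutant FSK against 0.706 in mutant CON (0.63). It was below the threshold with rescaled pools (0.57) and once the length trend was removed (0.45). Of 16 ligand genes, 6 were kept and none was called in any of the 5 comparisons. Of all kept beta cell genes, 0.0495% to 5.12% were called per comparison, in the directions given above. Nothing is therefore read from the absence of calls among 6 genes. The median difference of the kept ligands in WT Ex-4 was 0.01, against 0.03 over all kept genes, and that of the kept receptors was -0.43. The kept receptors include *Robo1*, *Robo2*, *Unc5b*, *Unc5c* and *Unc5d*, and the kept ligands *Slit2* and *Ntn4*, members chosen with this contrast known. Nothing is therefore read from these medians.

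All 25 genes for intracellular partners were kept in beta cells, among them those for srGAPs, Abl kinases and Nck adaptors. *Nck2*, an adaptor that links receptors to actin regulators, was at 0.509 CP10K in mutant CON against 1.29 in WT CON (-0.60), which was not past the threshold with rescaled pools (-0.56) or after removal of the length trend (-0.43). *Ablim1*, an actin-binding protein whose worm relative acts in axon guidance, was at 1.93 against 3.83 CP10K in the same comparison (-0.72) and at 4.86 in mutant FSK (1.00 against mutant CON). After removal of the length trend these differences were -0.40, not past the threshold, and 0.73. Over all kept beta cell genes, 3.86% were called lower in mutant CON against WT CON and 5.12% higher in mutant FSK against mutant CON. The median of the intracellular partners was -0.10 in WT Ex-4 and -0.19 in mutant CON. Of 25 plexin, neuropilin and Eph receptor genes, 9 were kept and none was called in any beta cell comparison. At the shares of all kept genes given above, nothing is read from this absence.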

How the data were processed

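The authors barcoded sorted islet nuclei by combinatorial indexing, aligned the reads to mm39 with split-pipe, removed nuclei with extreme counts, detected genes or mitochondrial share, and normalized, integrated and annotated them with Seurat, SCTransform and Harmony. The annotation release is not given, and nor is any correction of the counts before pooling, in the sources used here. The deposited values are natural log values, ln(1 + 10000 × count / pool total), with 1 value per condition and cell type (6 by 9, 54 columns). Counts were recovered from them, and 100% came out whole to within 0.001 (at most 6.39e-05 off).

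Differences are of log2(CP10K + 1). A gene was kept in a cell type at or above the 40th percentile of the genes' means over its 6 conditions and called at 1.5-fold (0.58). This left 10093, 9487 and 9256 genes in beta, alpha and delta cells. With 1 pool per condition no test was run. Counts have exact Poisson and ratios exact conditional intervals (95%), which cover counting error only, and the floor was 3 counts. Depth is 1915006 to 3094377 counts per beta pool and 3652805 to 4085574 per condition. The 8 samples are sublibraries of all 6 conditions and not replicates.

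Spans came from GENCODE M39 on GRCm39 (16531 of 17362 genes matched by name) and promoter windows from RefSeq (GRCm38.p6), which held 7 of the 9 genes. The length trend was a lowess fit (span 0.3). Alternatives were pseudocounts of 0.01, 0.1 and 1 times the median level, no filter, the 75th percentile, a 2-fold threshold, a median set to 0, pools rescaled without 16 genes, and removal of the length trend. Members and lists were chosen with earlier results of these data known. Genes named are the members, pathway genes past 1.5-fold in beta cells, and the 3 genes most like each member kept in all 3 cell types. Computations were tested on simulated data and used scipy 1.17.1 for intervals, statsmodels 0.14.6 for lowess, and pandas 2.3.3 with numpy 2.4.6 under Python 3.11.15, with figures by matplotlib 3.10.9.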

Additional observations from a re-analysis of the deposited data

Results flagged for a closer look

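The difference between treated and untreated pools went opposite ways in the 2 genotypes for 6 gene and cell type pairs in which 1 or both differences passed 1.5-fold and the intervals of the ratios lay on opposite sides of 1. With 1 pool per condition the difference between genotypes was not tested. The share of all kept genes that meet the same rule is not given here, so the count of 6 is not read as particular to these genes. In beta cells *Robo1* had an FSK to CON ratio of 2.90 in the mutant (2.58 to 3.27) and 0.898 in WT (0.841 to 0.959). *Unc5c* in beta cells had 1.28 in the mutant (1.09 to 1.51) and 0.413 in WT. *Robo2* in beta cells had an Ex-4 to CON ratio of 1.11 in the mutant (1.03 to 1.19) and 0.419 in WT. In alpha cells *Robo2* had an FSK to CON ratio of 1.36 in the mutant (1.22 to 1.51) and 0.582 in WT. In delta cells *Unc5c* had 2.34 in the mutant (2.05 to 2.67) and 0.788 in WT, and *Unc5d* had 2.19 (1.35 to 3.64) and 0.279. *Unc5d* in beta cells also had such intervals, with an Ex-4 to CON ratio of 1.83 (1.06 to 3.23) in the mutant and 0.236 (0.168 to 0.326) in WT, but neither difference passed 1.5-fold. The untreated pools started from different levels, WT CON being higher than mutant CON in the 6 pairs.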

How the results depend on the processing

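The counts of members past 1.5-fold were recomputed under 9 alternatives. No called difference changed sign under the 4 alternatives in which single differences were recomputed. Counts are of members past the threshold in either direction. The share of all kept genes past it under each alternative is not given here, so the counts are not read as particular to the members. Without the filter and with rescaled pools all 15 counts stayed within 1.5 times their value. At 0.01 times the median as pseudocount, the counts became, in beta cells, 5 in WT Ex-4, 2 in mutant Ex-4, 7 in mutant CON, 4 in WT FSK and 6 in mutant FSK, in alpha cells 1 in mutant Ex-4, 5 in mutant CON, 3 in WT FSK and 2 in mutant FSK, and in delta cells 2 in mutant Ex-4, 5 in WT FSK and 4 in mutant FSK. With 0.1 times the median they became 5, 2, 5, 4 and 5 in beta cells, 1, 5, 3 and 2 in alpha cells and 2, 5 and 4 in delta cells in the same order. With 1 times the median they became 3 in alpha WT FSK and 2 in delta mutant FSK. A 2-fold threshold left 0 in beta WT FSK, 1 in beta mutant FSK, 0 in alpha WT FSK, 2 in delta WT Ex-4, 2 in delta mutant CON and 1 in delta WT FSK. The 75th percentile filter and a median set to 0 each left 1 in beta WT FSK. Removal of the length trend left 1 in beta mutant FSK, 2 in delta WT Ex-4 and 2 in delta mutant CON. Members with few counts enter at small pseudocounts, where counting error alone can move them. No paired analysis was possible because each condition has 1 pool. No library could be left out, and 1 preparation per condition limits every comparison.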
